A study of Mus musculus with 2 samples.

Results

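Among barcodes of mouse choroid plexus, the secretory tissue of the brain ventricles, 345 barcodes at 3 months and 262 at 24 months of age held transcripts of endothelial cells and of pericytes together. They were chosen by measured values: at least 500 genes, at most 25% mitochondrial transcripts, less than 10% of counts from Ttr (transthyretin, the main product of the plexus epithelium), at least 8 counts summed over 7 endothelial genes and at least 8 summed over 8 pericyte genes. Counts are of UMIs, the tags that let copies of a captured transcript made by amplification be counted once. Of 18836 barcodes that passed the gene and mitochondrial filters 607 were members, 345 of 8763 at 3 months and 262 of 10073 at 24 months. Both groups were female C57BL/6 mice, aged 3 or 24 months, and the labels name no treatment, transgene or other allele. For each age the lateral and 4th ventricle plexuses of 4 perfused mice were pooled, digested with DNase and collagenases, and made into 1 droplet-based 10x Genomics 3′ library. With 1 library per age there is no replicate check, no test was made, and every interval in brackets is a 95% interval that covers counting error only. Values are given with 3 months first, and CPM is counts per 1000000 UMIs summed over the barcodes of a class.

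Pericytes wrap the capillary wall and share its basement membrane with the endothelium. Endothelial PDGF-B holds them there through the receptor PDGFRβ, and further signals run through angiopoietin and its receptor Tie2, through Notch ligands and Notch3, and through TGF-β. Choroid plexus capillaries are fenestrated: they carry the diaphragm protein PLVAP and are kept up by VEGF signalling through KDR, unlike the tight capillaries of the brain itself. In a droplet assay 1 barcode may hold 1 cell, 2 cells that stayed attached or met in a droplet, or 1 cell with free RNA of others. The counts of a barcode do not show which of these it was. Per the labels' protocols, the suspensions held under 10% multi-cell aggregates.

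The libraries held 9154 and 10430 deposited barcodes and 111403078 and 116777113 UMIs, and 29 barcode sequences occurred in both libraries, 1 of them a member at 3 months. The members held 1601372 UMIs at 3 months and 1349503 at 24 months. Barcodes with Ttr at 10% of UMIs or more are called epithelial barcodes here (6031 and 6983). For comparison, 396 and 375 barcodes had at least 8 UMIs of the 7 endothelial genes and at most 1 of the 8 pericyte genes (endothelial-only), and 84 and 50 had the reverse (pericyte-only). Of the pericyte-only barcodes, 50 and 30 had at most 2 UMIs of the smooth muscle genes Acta2, Tagln and Myh11, and the other 34 and 20 had more, so the pericyte-only class also held barcodes with a contractile mural profile.

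The 7 endothelial genes of the rule were present at close to endothelial levels. Flt1, a VEGF receptor and decoy (chromosome 5, 147561604 to 147726011, minus strand, mm10), reached 5312 and 5352 CPM in members and 5920.3 and 6439 CPM in endothelial-only barcodes. Kdr, the main signalling VEGF receptor (chromosome 5, 75932827 to 75978458, minus strand), stood at 1797 and 1759 CPM. The other members of the sum were Emcn (endomucin) at 1398 and 1352 CPM, Pecam1 (CD31) at 937 and 825 CPM, Egfl7 at 689 and 768 CPM, Cdh5 (VE-cadherin) at 598 and 643 CPM and Esam at 392 and 428 CPM. No gene of this group differed between ages by the size rule used below. At least 1 UMI of Esm1 and Stc1, endothelial genes that the rule did not use, was found in 52.8% and 70.6% (Esm1) and in 78.3% and 78.2% (Stc1) of members. The rule genes' levels follow from the way the members were chosen and are given as a description.

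The 8 pericyte genes were led by 1 gene. Rgs5, a regulator of G protein signalling known as a pericyte gene (chromosome 1, 169655501 to 169695813, plus strand), was at 4925 and 5581 CPM in members, against 64.4 and 29.3 CPM in endothelial-only barcodes. The other 7 genes were far lower: Abcc9 at 435 and 369 CPM and Kcnj8 at 154 and 156 CPM (the subunits of a pericyte potassium channel), Pdgfrb at 263 and 256 CPM, Notch3 at 215 and 237 CPM, Ndufa4l2 at 170.5 and 188 CPM, Higd1b at 119.9 and 156 CPM and Vtn (vitronectin) at 138 and 109 CPM. A member held on average 22.9 and 28.7 UMIs of Rgs5 and 6.94 and 7.58 UMIs of the 7 others together. In epithelial barcodes, which should lack the gene, Rgs5 averaged 0.14 and 0.103 UMIs at median depths of 17689 and 15257 UMIs.

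**Figure D1:**
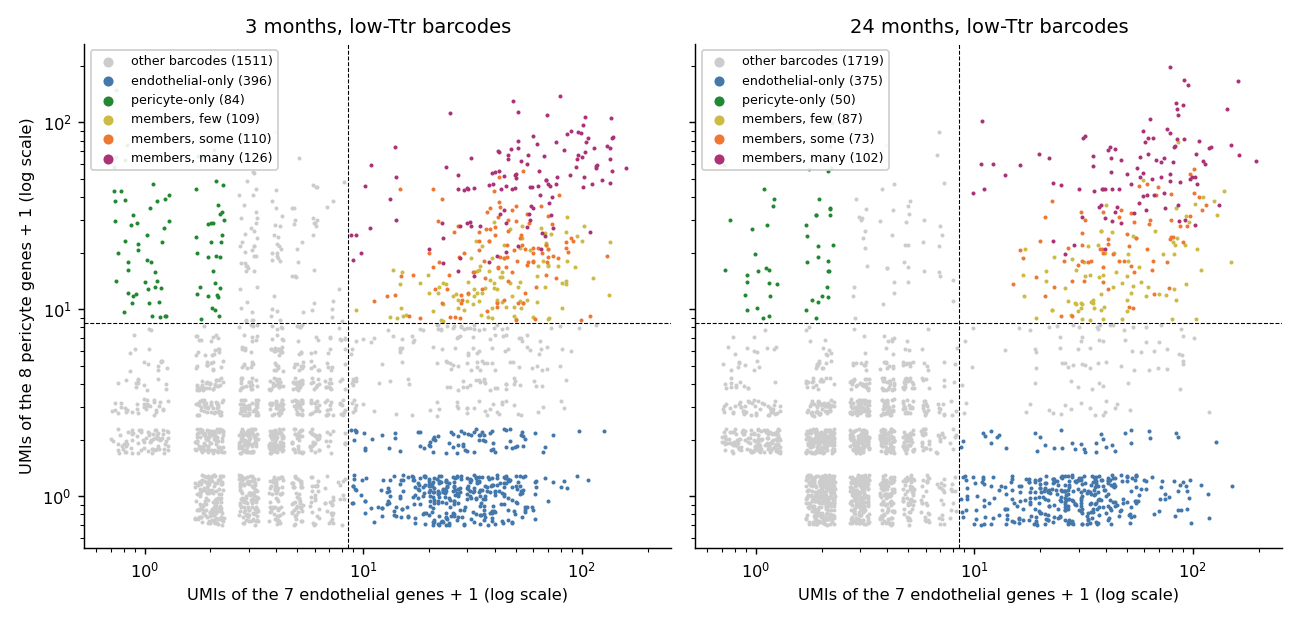
UMIs of the 7 endothelial genes (x axis) and of the 8 pericyte genes (y axis), both plus 1 on log scales with small random offsets, for each barcode with Ttr under 10% and at least 1 UMI of either sum, at 3 months (left) and 24 months (right); dashed lines mark the thresholds of 8 UMIs. Members lie in the upper right and are coloured by their UMIs of the 7 pericyte genes other than Rgs5: few (at most 1), some (2 to 7) and many (8 or more). Members with few lie in the lower part of that region, and those with many in the upper part.

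The members were 3.94% (3.54 to 4.37) of the kept barcodes at 3 months and 2.60% (2.30 to 2.93) at 24 months. The share at 24 months was 0.661 times that at 3 months (0.560 to 0.778). All barcodes with at least 8 endothelial UMIs (917 and 723) went from 10.5% to 7.18% of kept barcodes. All with at least 8 pericyte UMIs (524 and 362) went from 5.98% to 3.59%. Both groups include the members, so their fall is partly that of the members. Of the classes that hold no member, endothelial-only barcodes went from 4.52% to 3.72% (0.824 times, 0.713 to 0.951). Pericyte-only barcodes went from 0.959% to 0.496% (0.518 times, 0.357 to 0.744). As a share of the endothelial-marker barcodes the members came to 37.6% (34.5 to 40.8) and 36.2% (32.7 to 39.9), a ratio of 0.963 whose interval (0.817 to 1.13) included 1. As a share of the pericyte-marker barcodes they came to 65.8% (61.6 to 69.9) and 72.4% (67.5 to 76.9). When every barcode was thinned to 1500 UMIs, which left out 291 and 263 shallower barcodes, 4.12% and 2.74% held 4 or more UMIs of each sum.

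Pericyte transcripts therefore occurred mostly in barcodes that also held endothelial ones. By their endothelial sum, the pericyte-marker barcodes were fewest in the bin of 8 to 15 UMIs, with 26 and 9. Below it, 84 and 50 held 0 or 1 endothelial UMI, 63 and 28 held 2 or 3, and 32 and 22 held 4 to 7. Above it, 68 and 53 held 16 to 31, and 251 and 200 held 32 or more. Of the endothelial-marker barcodes, 319 and 339 held 0 pericyte UMIs, 77 and 36 held 1, 75 and 28 held 2 or 3, 101 and 58 held 4 to 7, 116 and 67 held 8 to 15, 122 and 80 held 16 to 31, and 107 and 115 held 32 or more. The smallest number was at 2 or 3 UMIs at both ages, and the bins above it were more evenly filled at 3 months than at 24 months. The bins widen as the sum rises, so the low number at 2 or 3 UMIs does not show a gap between groups. Just inside the threshold, with the lower of both sums at 8 or 9, were 40 and 21 barcodes with median depths of 2662.5 and 2466 UMIs. Just outside it, with the lower sum at 6 or 7, were 65 and 38 barcodes with medians of 2647 and 2716.5 UMIs.

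Smaller shares of the pericyte-marker barcodes held markers of the other stromal and immune cells than held endothelial markers, with intervals that did not overlap. Of the barcodes with at least 8 pericyte UMIs, 18.3% and 21.3% also had 8 or more UMIs of a smooth muscle list, 6.49% and 7.73% of a fibroblast list, 0.954% and 1.1% of a macrophage list and 0.191% and 0.552% of a lymphocyte list. Of the barcodes with at least 8 endothelial UMIs, 4.69% and 4.01% reached 8 UMIs of the fibroblast list and 0.872% and 0.83% of the macrophage list. Fibroblast-marker barcodes were the more numerous class (1153 and 1618 barcodes against 524 and 362 with pericyte markers), and macrophage-marker barcodes numbered 337 and 262.

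**Figure D2:**
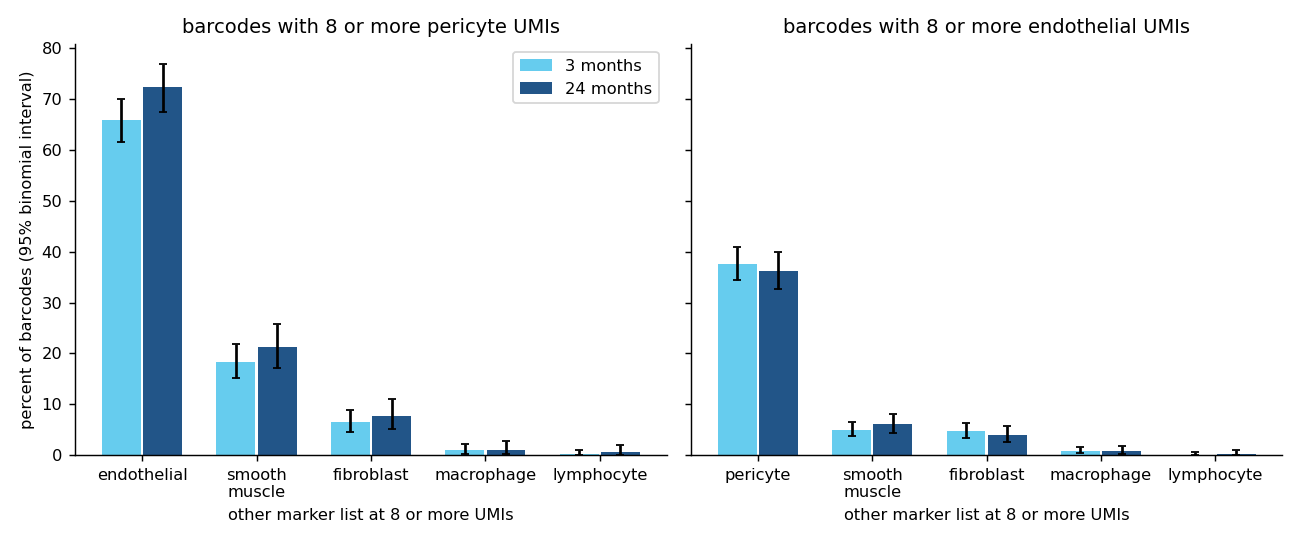
Percent of barcodes that reach 8 UMIs of another marker list, among barcodes with 8 or more pericyte UMIs (left) and with 8 or more endothelial UMIs (right), at 3 months (light) and 24 months (dark); error bars are exact binomial 95% intervals, which cover counting error only. The endothelial bars of the left panel stand at 65.8% and 72.4%, and the macrophage and lymphocyte bars of both panels stay below 2%.

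The members held about as many UMIs as an endothelial-only and a pericyte-only barcode together. Their median depth was 4093 and 4579.5 UMIs, against 2013 and 1969 in endothelial-only and 2247 and 2328.5 in pericyte-only barcodes. The median was 0.961 and 1.07 times the sum of those medians (4260 and 4297.5 UMIs) and 2.03 and 2.33 times the endothelial-only median. The ranges overlapped widely: members ran from 1038 to 15952 UMIs at 3 months and from 1682 to 14485 at 24 months, and endothelial-only barcodes reached 16451 and 8574. Detected genes numbered 1870 and 2022.5 per member at the median, 0.836 and 0.91 times the sum of both medians. Deep barcodes reach a minimum of counts in both sums more readily, and the part of this in the greater depth was not tested. The share of UMIs from mitochondrial genes was 4.52% and 4.48% at the median, between 3.68% and 3.31% in endothelial-only and 5.91% and 5.43% in pericyte-only barcodes.

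**Figure D3:**
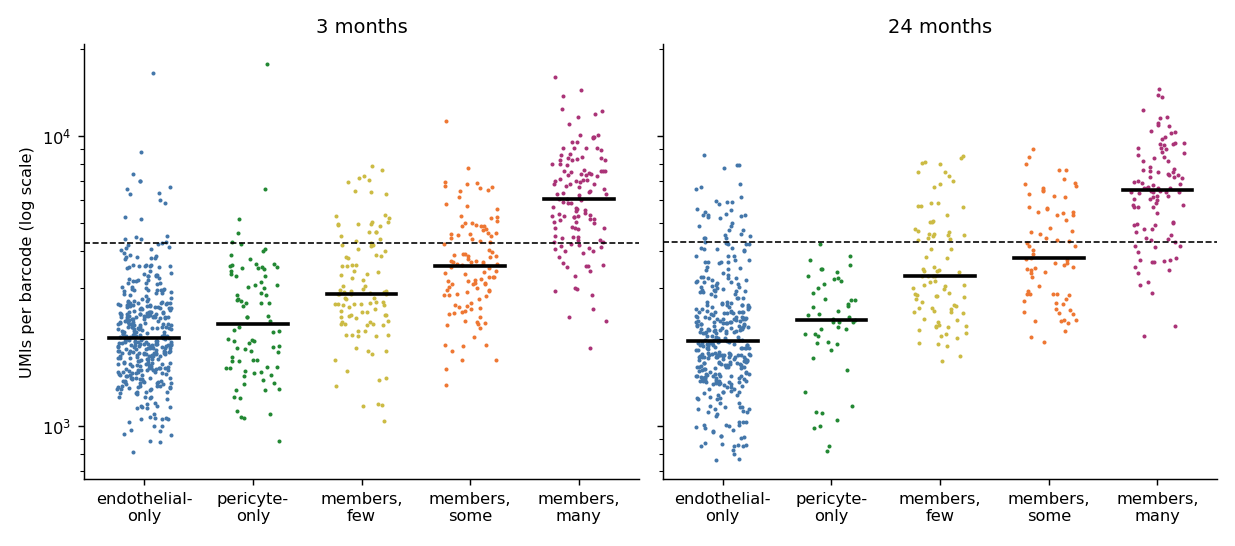
UMIs per barcode (log scale) in endothelial-only and pericyte-only barcodes and in members with few (at most 1), some (2 to 7) or many (8 or more) UMIs of the 7 pericyte genes other than Rgs5, at 3 months (left) and 24 months (right); points are barcodes, thick bars medians, and the dashed line is the sum of the endothelial-only and pericyte-only medians. Medians of members with few UMIs (2858 and 3291) lie below the line and those with many (6080.5 and 6539) above it. This order is not independent of how the bands were drawn.

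Every member also held UMIs of epithelial genes, in numbers close to those of the shallower classes. Summed over 14 epithelial genes they came to 66 and 54 UMIs per member at the median, 58 and 42 per endothelial-only barcode and 61.5 and 39 per pericyte-only barcode. Relative to all UMIs, the list was therefore lower in members (17502 and 15128 CPM) than in endothelial-only (30588 and 21432 CPM) and pericyte-only barcodes (34454 and 27532 CPM). Ttr alone stood at 15604 and 13389 CPM in members and 27088 and 19124 CPM in endothelial-only barcodes. The part of epithelial RNA in the differences between classes was not tested, apart from the fit without epithelial genes given below.

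Next, the expression profile of the members was set against those of endothelial-only and pericyte-only barcodes of the same library. Genes outside the rule that mark 1 of the classes were picked in those classes, with no member used: 103 endothelial-marking and 48 pericyte-marking genes with at least 200 CPM in their own class and at most 20% of that level in the other (pericyte-only barcodes with few smooth muscle counts were used here). The endothelial-marking genes reached a median of 0.847 and 0.775 times their endothelial-only level in members. Plvap, the fenestral diaphragm protein (chromosome 8, 71497765 to 71511752, minus strand), stood at 2122 and 1806 CPM against 2476 and 2467 CPM in endothelial-only barcodes. Igfbp3, a growth factor binding protein, stood at 1965 and 1964 CPM against 2292 and 2594 CPM. The pericyte-marking genes reached a median of 0.393 and 0.361 times their level in pericyte-only barcodes. Mgp (matrix Gla protein) stood at 4823 and 4371 CPM in members against 15748 and 13815 CPM in pericyte-only barcodes, and Steap4 at 343 and 351 CPM against 926 and 844 CPM. Both sets lay below the level of their own class, and the endothelial set lay nearer to it. Per barcode, 99.7% and 99.6% of members held an UMI of a second endothelial list with no rule gene, and 92.8% and 92.7% held an UMI of a second pericyte list.

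No gene of the members at 100 CPM or more lay 2 times or more above both other classes. Of 1778 genes at 100 CPM or more in members at 3 months and 1738 at 24 months, 0 and 0 (0.0% and 0.0%) were at least 2 times above the larger of the endothelial-only and pericyte-only levels. The nearest at both ages included Myh9, a non-muscle myosin heavy chain, at 798 and 776 CPM in members, 1.59 and 1.54 times the larger of the other levels. On the low side 2 of 1149 genes (0.174%) at 3 months, Ptn and 2900040C04Rik, and 1 of 1100 (0.0909%) at 24 months, Apod, were at most 0.5 times the smaller level. None of the 3 met that mark at both ages. 2900040C04Rik is an epithelial gene here (1040 CPM in epithelial barcodes at 3 months), and Ptn and Apod were lower in epithelial barcodes than in either class.

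A mix of the endothelial-only and pericyte-only profiles was then fitted to the members by maximum likelihood over all genes other than Ttr, mitochondrial genes and the 15 genes of the rule. The best mix held 18.3% pericyte-only profile at 3 months and 18.7% at 24 months. Across 4653 and 4111 genes, log levels in members correlated at 0.966 and 0.963 with the mix, at 0.904 and 0.887 with the endothelial-only profile alone and at 0.63 and 0.638 with the pericyte-only profile alone. These are descriptions across genes of the same libraries, and genes are not replicates. The fitted share was lower than the 0.393 and 0.361 at which the pericyte-marking genes stood, and 80 and 96 genes remained at least 2 times above the mix. Without genes that epithelial barcodes also expressed, the fitted share was 19.9% and 20.9%. Rgs5, left out of the fit, was 3.22 and 3.66 times above the 1530 and 1525 CPM that the mix gave. Rgs5 led the pericyte sum by which the members were chosen. Its excess over the mix is therefore not independent of the rule and is no check of the mix.

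The members were not alike in how much pericyte RNA they held besides Rgs5. By their UMIs of the 7 other pericyte genes, a division made after the values were seen, 109 and 87 members (31.6% and 33.2%) held at most 1, 110 and 73 held 2 to 7, and 126 and 102 (36.5% and 38.9%) held 8 or more. In the first band the pericyte threshold was met by Rgs5 nearly alone, with a median of 12 and 13 UMIs per barcode. The same was so for 5 of 84 pericyte-only barcodes at 3 months (5.95%, 1.96 to 13.3) and 3 of 50 at 24 months (6.0%, with an upper limit of 16.5). The ratios of the shares at 24 to those at 3 months were 1.05 (0.784 to 1.41) for the first and 1.07 (0.813 to 1.40) for the last band, with intervals that included 1. The bands were cut on UMI numbers of pericyte genes. Differences between bands in depth, fitted mix and pericyte genes are therefore not independent of the division.

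Members with many UMIs of the other pericyte genes showed both programmes at more than 0.5 times their own level. Their median depth was 6080.5 and 6539 UMIs, 1.43 and 1.52 times the sum of the endothelial-only and pericyte-only medians. Endothelial-marking genes stood at a median of 0.696 and 0.661, and pericyte-marking genes at 0.578 and 0.543, of their own class. The fitted mix held 30.8% and 30.7% pericyte-only profile. A second pericyte list with no rule gene (20 genes) summed to 3854 and 4207 CPM, against 6431 and 7099 CPM in pericyte-only and 353 and 378 CPM in endothelial-only barcodes. In it Gucy1a1 and Gucy1b1, the subunits of the nitric oxide receptor guanylate cyclase, stood at 251 and 214 CPM and 256 and 259.7 CPM, and Cspg4 (NG2), a classical pericyte antigen, at 110.3 and 109 CPM.

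Members that met the pericyte threshold through Rgs5 nearly alone lay close to endothelial-only barcodes in profile. Their median depth was 2858 and 3291 UMIs, 0.671 and 0.766 times the sum of medians and 1.42 and 1.67 times the endothelial-only median. Endothelial-marking genes stood at 1.06 and 0.986 times, and pericyte-marking genes at 0.106 and 0.0832 times, their own level. The fitted mix held 0.913% and 1.42% pericyte-only profile. The second pericyte list summed to 689 and 643 CPM, between endothelial-only (353 and 378 CPM) and pericyte-only barcodes. Rgs5 itself was at 4074 and 4338 CPM, a level fixed from below by the rule, against 64.4 and 29.3 CPM in endothelial-only barcodes and 5352 and 7874 CPM in pericyte-only barcodes with few smooth muscle counts. The mix gave 138 and 143 CPM, so Rgs5 stood 29.6 and 30.4 times above it. Barcodes with 2 to 7 pericyte UMIs just outside the members (176 and 86) held a mean of 3.43 and 3.92 UMIs of Rgs5 and 0.79 and 0.523 of the 7 others.

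**Figure D4:**
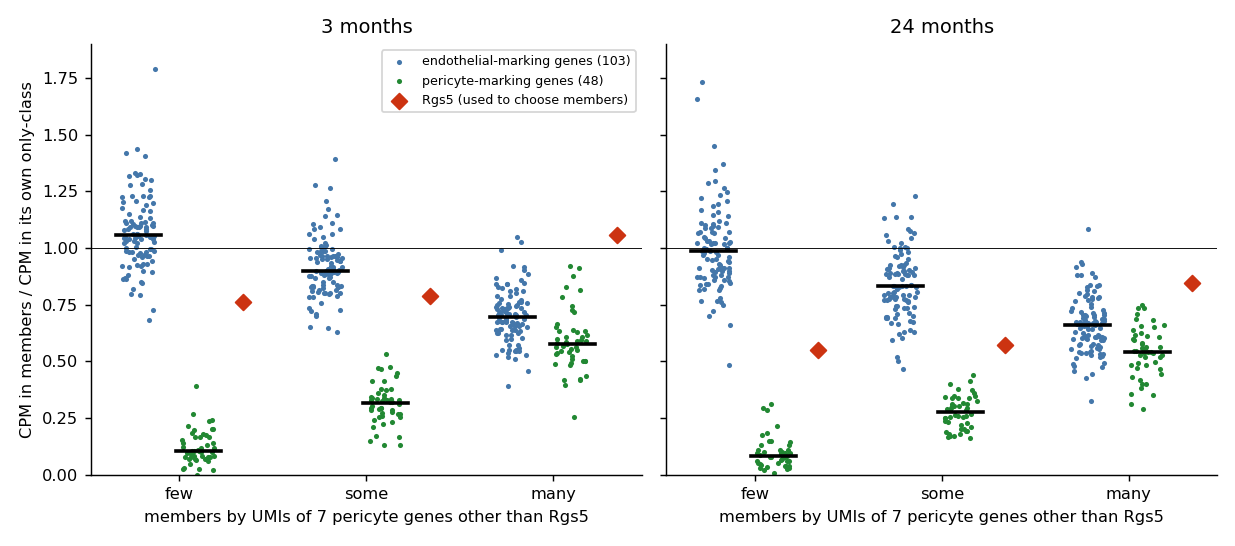
Level in members divided by level in the class each gene marks (linear axis), for 103 endothelial-marking genes (blue, against endothelial-only) and 48 pericyte-marking genes (green, against pericyte-only with few smooth muscle counts), in members with few (at most 1), some (2 to 7) or many (8 or more) UMIs of the 7 pericyte genes other than Rgs5, at 3 months (left) and 24 months (right); points are genes, bars medians, and red diamonds Rgs5, which was used to choose the members. From few to many the pericyte-marking median goes from 0.106 to 0.578 and from 0.0832 to 0.543, a rise that is not independent of how the bands were drawn. The Rgs5 diamond stays above every pericyte-marking gene in the panels' first band.

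Gene by gene, few genes separated the members with Rgs5 nearly alone from endothelial-only barcodes. Of 1692 genes at 100 CPM or more in 1 of these classes at both ages, 6 (0.355%) were at least 2 times higher at both ages and 2 (0.118%) at most 0.5 times as high. Rgs5, 1 of the 6, was used to form both classes, so its difference is fixed by the rule and is no result. Beside Rgs5, the higher genes were Lhfp (145 and 130.5 CPM against 46.9 and 33.8), Mylk, the kinase of myosin light chain (107 and 109.7 CPM against 34.9 and 20.3), Fam162a (112 and 163 CPM against 46.9 and 38.3), Itpripl2 (118 and 113 CPM against 56.7 and 41.6) and Hbb-bs, a haemoglobin chain. Lhfp, Mylk and Fam162a were higher still in pericyte-only barcodes with few smooth muscle counts (609 and 601, 274 and 373, 669 and 568 CPM), while Itpripl2 was at a like level there (112 and 97.4 CPM). For Hbb-bs, 97.4% and 98% of the UMIs came from 1 barcode of each library. The lower genes were Selp (P-selectin, a leukocyte adhesion molecule of venules) at 19.2 CPM against 141 CPM at 3 months and 0 UMIs against 159.8 CPM at 24 months, and Ptgs2 (cyclooxygenase 2) at 13.7 against 105 CPM and 0 UMIs against 115 CPM. Ptgs2 was higher in pericyte-only barcodes with few smooth muscle counts (420.3 and 747 CPM). At 24 months 0 UMIs allow a level of up to 8.9 CPM. These genes were named after their values were seen.

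The vessel type of the members was read from lists of the plexus endothelium. The fenestrated list of 11 genes summed to 13484 and 12651 CPM in members and 16018 and 16718 CPM in endothelial-only barcodes. Esm1, an endothelial proteoglycan of tip-like cells (chromosome 13, 113209659 to 113218098, plus strand), stood at 488 and 662 CPM against 526 and 803 CPM in endothelial-only barcodes. Stc1, the glycoprotein stanniocalcin (chromosome 14, 69029238 to 69041804, plus strand), stood at 1103 and 923 CPM against 1292 and 955 CPM. The list of brain-type barrier endothelium, 14 genes, summed to 792 and 899.6 CPM in members and 1154 and 1190.3 CPM in endothelial-only barcodes. Within it Cldn5 (claudin-5) stood at 13.7 and 31.1 CPM, the glucose transporter Slc2a1 at 43.1 and 43 CPM and Itm2a at 214 and 269.7 CPM. The arterial list of 12 genes summed to 990.4 and 1071 CPM, against 956 and 1035 CPM in endothelial-only barcodes. Gja4, an arterial connexin that is also made by mural cells, was at 30.2 and 20.8 CPM in members with few and 352 and 383 CPM in members with many other pericyte UMIs.

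Marker lists of other cells differed in how far they reached into the members. The macrophage list summed to 87.4 and 57.8 CPM and the lymphocyte list to 31.2 and 13.3 CPM, with 5 and 3 of its 12 genes at 0. The fibroblast list summed to 450 and 525 CPM (477 and 719 CPM in endothelial-only barcodes) and the smooth muscle list to 1045 and 957 CPM (204 and 174 CPM in endothelial-only barcodes, 1561 and 1883 CPM in pericyte-only barcodes with few smooth muscle counts, and 12433 and 12205 CPM in all pericyte-only barcodes). Acta2, the smooth muscle actin, stood at 58.1 and 38.5 CPM and Myh11, a smooth muscle myosin, at 84.3 and 49.6 CPM. At least 8 UMIs of the smooth muscle list were found in 43 of 345 (12.5%) and 43 of 262 members (16.4%), of the fibroblast list in 16 (4.64%) and 19 (7.25%), of the macrophage list in 4 and 2 and of the lymphocyte list in 1 and 0. Scrublet, which scores barcodes against simulated pairs, placed 6 of 345 (1.74%) and 10 of 262 members (3.82%) among the highest scores at 0.8% per 1000 barcodes. The shares were 1.26% and 1.33% of endothelial-only and 10.0% and 11.4% of epithelial barcodes. That cutoff took 7.32% and 8.34% of all deposited barcodes, and 605 of those 670 and 794 of those 870 were epithelial barcodes. Scrublet's automatic threshold marked 20 and 8 barcodes in all and did not work here, and no barcode was removed on its score.

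Signals that pass between the vessel wall's cells were found on both sides within the members. Among ligands, Pdgfb, which recruits pericytes, stood at 157 and 146 CPM and was seen in pericyte-only barcodes with 2 UMIs at 3 months and 0 at 24 months, and its receptor Pdgfrb at 263 and 256 CPM, with 21.9 and 17.8 CPM where few other pericyte UMIs were present and 422 and 430.5 CPM where many were. Pdgfrb is 1 of the 7 genes by which these bands were drawn, so its contrast between them is fixed by the division and is no result. The Notch ligand Dll4 of endothelium stood at 150.5 and 150.4 CPM, Jag1 at 71.2 and 71.1 CPM, and the receptors Notch1 at 528 and 469 CPM and Notch3 at 215 and 237 CPM. Jag1 was low in endothelial-only barcodes (12 and 23.6 CPM), at 16.5 and 14.8 CPM in members with few and 105 and 109 CPM in members with many other pericyte UMIs. Tgfb1 stood at 279 and 289.7 CPM, Cxcl12 at 292 and 292 CPM, and the angiopoietin receptor Tek (Tie2) at 175 and 188 CPM. The endothelin receptors divided: Ednra, the mural type, stood at 8.23 and 8.9 CPM in members with few and 120.1 and 156 CPM in those with many other pericyte UMIs, and Ednrb at 796 and 967 CPM and 593 and 743 CPM. In members with few, the Ednra level rests on 3 counts in each library, as low as the limit used where no UMI was seen. The basement membrane list of 18 genes summed to 12412 and 12002 CPM, against 11366 and 10990 in endothelial-only and 6744 and 6684 in pericyte-only barcodes.

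The age comparison asked which genes of the members differed between the 3 month and the 24 month library. By the rule of size used, a gene counted as higher if its CPM was at least 25% higher at 24 months, and as lower if it was at least 20% lower, with 1 outside the interval of the ratio and 50 UMIs or more in both libraries together. Of 6479 genes, 336 (5.19%) were higher and 421 (6.5%) lower at 24 months, with a median log2 ratio of -0.04. Medians of lists are of log2 ratios with 1 CPM added, and lists are read against these background shares. The same rule gave 286 and 361 of 4762 genes in endothelial-only and 119 and 56 of 1070 in pericyte-only barcodes. These classes come from the same libraries, so their values stand beside those of the members and are no independent check. Animals, dissection and library differ together with age and cannot be told apart from it.

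Of 16 genes of antigen presentation by MHC class I 9 were higher and 0 lower at 24 months (median log2 ratio 0.42), against 8 and 0 of 16 in endothelial-only barcodes. The heavy chain genes H2-Q7 and H2-Q6 gave the largest ratios. H2-Q7 went from 41.8 to 233 CPM (5.58 times, 4.27 to 7.38) and H2-Q6 from 35.0 to 134 CPM (3.84 times, 2.83 to 5.27). These neighbouring genes are near-identical, so reads may be split between them and each value alone is uncertain. Psmb9, an immunoproteasome subunit, went from 45 to 76.3 CPM (1.7 times, 1.24 to 2.33) and H2-T22 from 54.3 to 89.7 CPM (1.65 times, 1.24 to 2.2). The shared light chain B2m went from 1426 to 1982 CPM (1.39 times, 1.31 to 1.47). In members with few other pericyte UMIs 6 of 13 genes were higher and 1 lower, and in those with many 8 of 15 were higher and 0 lower. In the interferon list 3 of 22 were higher and 1 lower, against 8 and 0 of 20 in endothelial-only barcodes, a difference that was not tested. It gave 0 higher and 2 lower of 17 in members with many other pericyte UMIs (median -0.04) and 1 and 1 of 22 with 5 UMIs of each sum.

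Of 16 targets of Notch and VEGF signalling 8 were higher and 0 lower (median log2 ratio 0.31). Egr3 went from 88.7 to 153 CPM (1.72 times, 1.38 to 2.15), the nuclear receptors Nr4a1 from 1314 to 2009.6 CPM (1.53 times, 1.44 to 1.62) and Nr4a2 from 1073 to 1528 CPM (1.42 times, 1.34 to 1.52), and Apold1, an early-response gene of endothelium, from 787 to 1121 CPM (1.42 times, 1.32 to 1.54). Of 25 immediate early and heat shock genes 6 were higher and 0 lower (median 0.13), and 4 and 0 on the mean of per-barcode CPM. Those 6 included Fos, from 1889 to 2706 CPM (1.43 times, 1.36 to 1.5), Hspa1a, from 479.6 to 691 CPM (1.44 times, 1.31 to 1.59), Dnajb1, from 344 to 466 CPM (1.35 times, 1.21 to 1.52), and Klf2, a flow-responsive factor, from 395 to 540.2 CPM (1.37 times, 1.23 to 1.52). Such genes respond to dissociation, and the genes named from the Notch and VEGF list may do so too. The part of tissue handling in the values of both lists was not tested. Levels of target genes do not measure Notch or VEGF signalling itself. Endothelial-only barcodes had 6 of 14 and 9 of 24 genes of these lists higher, with 1 lower in each.

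Of 17 basement membrane genes 7 were lower and 0 higher at 24 months (median log2 ratio -0.31), against 2 higher and 5 lower of 16 in endothelial-only barcodes. Col15a1, a collagen of vascular basement membranes, went from 180.5 to 90.4 CPM (0.501 times, 0.402 to 0.621) and Nid2 (nidogen 2) from 53.7 to 25.9 CPM (0.483 times, 0.316 to 0.723). Fn1 (fibronectin) went from 28.7 to 13.3 CPM (0.464 times, 0.253 to 0.816), and Agrn (agrin) stood at 59.3 and 43 CPM, a ratio whose interval included 1 (0.724 times, 0.513 to 1.01). The collagen IV chain Col4a2, nidogen 1 (Nid1), laminin β1 (Lamb1) and Sparc completed the 7, with Sparc going from 1649 to 1283 CPM (0.778 times, 0.732 to 0.827). In members with few other pericyte UMIs the count was 1 higher and 2 lower of 11 (median -0.10). The summed level of the list, given above, differed little between ages. Of 19 genes of protein folding in the endoplasmic reticulum 4 were lower and 0 higher (median -0.20), and in members with few other pericyte UMIs 1 of 13 was lower (median -0.10). They included Trib3, a stress-induced pseudokinase, which went from 33.7 to 17.8 CPM (0.527 times, 0.312 to 0.868), the disulfide isomerase Pdia6 from 157 to 99.3 CPM (0.634 times, 0.51 to 0.784) and Manf from 211 to 136 CPM (0.646 times, 0.537 to 0.775).

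Among ligands of the vessel wall 5 of 21 were higher and 0 lower (median log2 ratio 0.05). The count was 1 of 17 in members with many other pericyte UMIs, and 3 higher with 1 lower of 24 with 5 UMIs of each sum. Hbegf, an EGF receptor ligand, went from 812 to 1835 CPM (2.26 times, 2.11 to 2.42), and in endothelial-only barcodes from 861 to 1568 CPM (1.82 times, 1.67 to 1.99). Edn1 (endothelin 1), the endothelial vasoconstrictor, went from 16.2 to 45.9 CPM (2.83 times, 1.76 to 4.66), on 26 and 62 UMIs. Pgf (placental growth factor) went from 31.8 to 54.8 CPM (1.72 times, 1.19 to 2.51) and Angpt2, known as an antagonist of angiopoietin 1, from 51.8 to 70.4 CPM (1.36 times, 1 to 1.85, with the lower limit just above 1). Esm1 went from 488 to 662 CPM (1.36 times, 1.23 to 1.5). Among receptors 4 of 27 were higher and 1 lower: S1pr3 (1.47 times, 1.14 to 1.9) and S1pr1 (1.33 times, 1.17 to 1.5), receptors for sphingosine 1-phosphate, were higher with Tgfbr2 and Ednrb, and the venous ephrin receptor Ephb4 was lower (0.676 times, 0.509 to 0.892). The receptors that carry VEGF, PDGF-B and angiopoietin signals were near level, with ratios of 0.979 (0.927 to 1.03) for Kdr, 0.975 (0.843 to 1.13) for Pdgfrb and 1.08 (0.905 to 1.28) for Tek. Kdr and Pdgfrb belong to the rule that chose the members at both ages, so their ratios are not independent of it. Tek is not in the rule.

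In the list of adhesion molecules and chemokines 6 of 13 genes were higher and 1 lower (median log2 ratio 0.20), and in endothelial-only barcodes 1 of 11 and 0. The count depended on the setting: it was 3 and 1 of 13 on the mean of per-barcode CPM, 4 and 3 of 15 with 5 UMIs of each sum (median 0.0060), and 2 and 2 of 9 in members with many other pericyte UMIs (median -0.11). Single barcodes weighed on this list: of the 24 month UMIs, 1 barcode gave 92.7% for Il1b, 63.2% for Ccl2 and 39.3% for Cxcl10. Il1b went from 8.74 to 40.8 CPM (4.66 times, 2.56 to 9.08), Cxcl10 from 13.7 to 62.2 CPM (4.53 times, 2.81 to 7.61) and Ccl2 from 23.1 to 42.2 CPM (1.83 times, 1.19 to 2.84). The lower gene was Sele (E-selectin), from 63.7 to 40.8 CPM (0.64 times, 0.452 to 0.897). Among smooth muscle genes 0 were higher and 3 lower of 10, with Myh11 going from 84.3 to 49.6 CPM (0.589 times, 0.433 to 0.795) and Acta2 from 58.1 to 38.5 CPM (0.663 times, 0.463 to 0.941). Few barcodes carried these transcripts: 9.57% and 18.7% of members held any UMI of Acta2, Tagln and Myh11, and 9 and 3 members held 8 or more, with up to 73 and 70. The 14 epithelial genes had 0 higher and 3 lower (median log2 ratio -0.29), the same direction as in endothelial-only barcodes (0 and 7 of 13). The second pericyte list, which holds no rule gene, was near level, with 1 of 18 genes higher and 0 lower. In the rule's list of 8, Higd1b was higher (1.3 times, 1.06 to 1.59) and Vtn lower (0.789 times, 0.636 to 0.977). Members were chosen by the sum of these 8 genes at both ages, so their ratios are not independent of the rule.

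Of the genes with the largest ratios over all, chosen by size at 100 CPM or more, the highest after H2-Q7 and H2-Q6 were Apod, a lipid-binding protein, from 44.3 to 153 CPM (3.46 times, 2.63 to 4.6), and Hilpda, a lipid droplet protein induced by hypoxia, from 84.9 to 267 CPM (3.14 times, 2.57 to 3.85). Apod also went from 84 to 515 CPM in endothelial-only barcodes, and 25.4% and 17.4% of the members' Apod UMIs came from 1 barcode of each library. Only 8.12% and 17.6% of members held any Apod UMI, and the source of these UMIs was not tested. The log2 ratio of Apod was 1.77 in all members, 1.11 without the highest Scrublet scores, 1.11 with 5 UMIs of each sum and 0.72 in members with many other pericyte UMIs. Cd74, the invariant chain of MHC class II, went from 43.7 to 126 CPM (2.88 times, 2.17 to 3.86), with 53.5% of the 24 month UMIs in 1 barcode. Its log2 ratio was 1.51 in all members, 2.81 in members with few and 0.17 in members with many other pericyte UMIs, the last below the size rule. Sncg and Cyr61, a matricellular protein, followed at ratios of 2.1 (1.7 to 2.6) and 2.04 (1.66 to 2.51). The lowest after Col15a1 were Cacybp at 0.503 (0.381 to 0.659), a log2 ratio of -0.98 that was -1.60 in members with few other pericyte UMIs, and the circadian factors Dbp at 0.508 (0.413 to 0.622) and Hlf at 0.598 (0.482 to 0.739). The endothelial transcription factor Sox18 was at 0.614 (0.505 to 0.744), with Lpar6 at 0.599 (0.471 to 0.757), Zbtb16 at 0.616 (0.518 to 0.731) and Grrp1 at 0.62 (0.533 to 0.721). The labels do not state at what time of day the tissue was taken. In endothelial-only barcodes Sox18 and Dbp gave 0.56 (0.444 to 0.704) and 0.54 (0.395 to 0.733), and Hlf gave 0.908 (0.674 to 1.22), an interval that included 1.

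**Figure D5:**
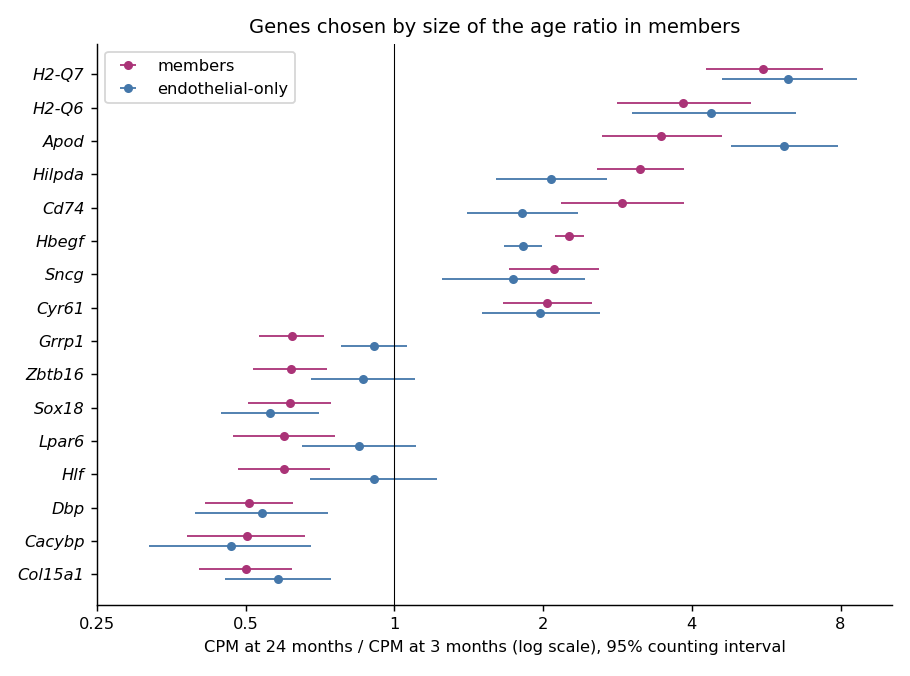
Ratio of CPM at 24 months to CPM at 3 months (log axis) for the 8 highest and 8 lowest genes of members (purple), with the same genes in endothelial-only barcodes (blue); bars are 95% intervals for counting error only, from 1 library per age. The members' ratios run from 0.501 for Col15a1 to 5.58 for H2-Q7, and the blue points for Grrp1, Zbtb16, Lpar6 and Hlf have intervals that include 1.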

How the data were processed

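Single-cell libraries of pooled choroid plexuses, 1 per age, were used as deposited. The values are UMI counts per gene and barcode, made by the authors with Cell Ranger 4.0.0 on mm10 per the submitters' processing notes. Which gene annotation was used is not stated in the sources used here. Coordinates are from GENCODE vM21 on that build.

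Classes were formed from UMI sums, counts were summed per class and library, and CPM was computed over all genes. Intervals are exact at 95%: Clopper-Pearson for shares, Poisson for sums and conditional binomial for ratios. They cover counting error only. Where no UMI was seen, 3 counts were taken as the upper limit. No p-value was computed, since each age had 1 library. Mixes were fitted by maximum likelihood, and the procedures were tested on simulated data. Doublets were not removed, and Scrublet scores (scanpy 1.11.5) were used only to leave barcodes out in an alternative.

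Named genes were the 15 rule genes, the 8 highest and 8 lowest age ratios at 100 CPM or more, and up to 4 genes per list with the largest ratios at 20 CPM or more. Genes below 10% of their level in epithelial barcodes, predicted, haemoglobin, mitochondrial and ribosomal protein genes and Xist were left out of the ranking of age ratios. Other genes named for a role or level were chosen after values were seen. The members and the gene lists were chosen with earlier results of these data known.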

Additional observations from a re-analysis of the deposited data

How the results depend on the processing

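Alternatives that used the 7 pericyte genes without Rgs5, bands of members, smooth muscle counts, epithelial genes, Scrublet scores in the age and share results, or the comparison of members with Rgs5 nearly alone were chosen after seeing the data. The ratio of member shares at 24 to 3 months stayed within 0.611 to 0.711 in all alternatives run. The median depth over the sum of medians was 1.09 and 1.24 with 12 UMIs of each sum, 1.43 and 1.52 with 8 UMIs of the pericyte genes other than Rgs5, and 1.07 at 3 months with pericyte-only barcodes of few smooth muscle counts. The pericyte share of the mix was 30.8% and 30.7% with 8 such UMIs, and 14.8% at 24 months when endothelial-only and pericyte-only barcodes held 0 UMIs of the other sum. Genes 2 times above both profiles then numbered 1 and 1, and at 24 months 2 on CPM without Ttr, mitochondrial and ribosomal protein genes, 5 at 50 CPM, and 4 with 8 UMIs of the pericyte genes other than Rgs5. In members with at most 1 such UMI, fewer genes (2353) had enough UMIs, and 139 (5.91%) were higher and 151 (6.42%) lower with age. These shares were close to the 5.19% and 6.5% of all members. Against endothelial-only barcodes, members with at most 1 such UMI had 10 genes higher, Rgs5 included, and 7 lower at 50 CPM, where more genes were compared than at 100 CPM. They had 1 lower when endothelial-only barcodes held 0 pericyte UMIs. Where not stated, the cause was not tested. Of 159 alternative values for the 16 genes with the largest age ratios, 155 kept direction and call, 4 lost the call and 0 reversed. The values with a pseudocount of 10 CPM and with 20 UMIs or more per gene are among them. Neither setting could change the call of these genes, so those values are no check of it. The losses were Cd74 among members with 8 UMIs of the other pericyte genes, and Hlf, Lpar6 and Grrp1 among those with at most 1. No paired analysis was possible because each age had 1 library. Depth limits genes under 50 UMIs.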

Other observations

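Genes of potassium and calcium channels, which set the membrane potential of mural cells, were graded across the members. The list of 18 summed to 606 and 552 CPM in members with few and 2588 and 2444 CPM in members with many UMIs of the pericyte genes other than Rgs5. It stood at 427 and 414 CPM in endothelial-only and 4226 and 3893 CPM in pericyte-only barcodes. The list holds the rule genes Kcnj8 and Abcc9, so its order across the bands is not independent of how they were drawn. Of 12 channel genes with enough UMIs, 1 was higher and 0 lower at 24 months.

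Genes of adhesion and cell junctions summed to 4956 and 4797 CPM in members, against 5120 and 4921 CPM in endothelial-only and 2343 and 2502 CPM in pericyte-only barcodes, and 1 of 14 was higher with age and 0 lower. In the list of barrier endothelium 3 of 10 were higher and 0 lower: Cldn5, Itm2a and Spock2. Glycolysis and hypoxia genes had 0 higher and 2 lower of 16, and senescence genes 3 higher and 1 lower of 12.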
